A study of Mus musculus with 8 samples.

Results

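The Rab genes encode small GTPases that sit on the membranes of the secretory and endocytic routes. The members were the protein-coding rows of the count table named Rab followed by a number and, for some, a letter, leaving out Rab3a and Rab3b; this gave 57 genes of the 54854 in the table. The tissue was whole pituitary of C57BL/6N mice aged 5 weeks. The anti-CD115 group held 4 mice, and the isotype control group held 4, each with 1 female (replicate 1) and 3 males (replicates 2 to 4). Anti-CD115 (clone AFS98) is a function-blocking antibody against CSF1R, a growth factor receptor of macrophages (gene Csf1r), and controls received rat IgG2a (clone 2A3). In both groups a dam received 3 mg of antibody at embryonic day 6.5, and the offspring then received 100 µg at postnatal day 2, 150 µg at day 14 and 200 µg at 4 weeks of age. The antibody depletes cells that depend on this receptor and marks no single cell type. Numbers of dams and litters are not given in the sources used here, so litter and treatment cannot be told apart, and p-values measure the spread between these 8 animals only.

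A Rab protein works as a switch. Exchange factors (GEFs) load it with GTP on its own membrane, effectors such as tethers and motors bind the loaded form, GTPase-activating proteins (GAPs) end the signal, and GDP dissociation inhibitors extract the protein for reuse. In the anterior pituitary the Rab3 and Rab27 branches act at hormone granules before exocytosis, Rab1, Rab2 and Rab6 serve the ER and Golgi where hormone precursors are made and sorted, and Rab5, Rab11 and Rab7 mark early, recycling and late endosomes. In macrophages, a further set serves phagosomes and lysosome-related organelles.

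Short stretches of 5 Rab promoters are shown because they hold 1 of 2 motifs described at lysosomal genes or in myeloid cells. They were not confined to the endolysosomal and leukocyte classes of the family, since Rab2b is an ER and Golgi member. Promoter windows (250 bases before to 50 after a start, RefSeq, GRCm38.p6) were found for 46 of the 57 members, in 57 windows. TCACGTGA, the palindromic E-box described at lysosomal genes, was present in 3 member windows (5.26%) and in 320 of all 32851 windows (0.974%). GAGGAAGT, the ETS type of site bound by PU.1 in myeloid cells, was searched on both strands and was present in 2 member windows (3.51%) and in 1052 of all windows (3.20%). The 2 motifs do not overlap in these stretches. Capitals mark the motif, each line runs 5′ to 3′ on the gene's strand, and the Rab2b promoter carries the reverse complement of GAGGAAGT.
Rab5a, chr17:53479120-53479163 (+): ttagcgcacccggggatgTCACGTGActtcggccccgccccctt
Rab21, chr10:115315597-115315640 (-): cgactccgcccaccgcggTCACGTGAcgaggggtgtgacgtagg
Rab24, chr13:55321954-55321997 (-): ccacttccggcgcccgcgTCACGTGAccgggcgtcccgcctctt
Rab32, chr10:10558225-10558268 (-): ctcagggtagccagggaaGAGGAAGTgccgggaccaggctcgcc
Rab2b, chr14:52279545-52279588 (-): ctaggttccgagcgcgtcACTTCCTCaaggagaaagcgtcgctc
The motif began 96 bases before the start in Rab5a, 31 in Rab21, 43 in Rab32 and 175 in Rab2b. In Rab24 it began 2 bases after the start. The treatment values of these 5 genes are given with their classes below.

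The libraries held 23289819 to 36218096 counts, and TMM factors (edgeR's scaling of library sizes) lay between 0.941 and 1.05. The tissue label was checked on the 7 hormone genes, whose summed level was 206211 to 297109 CPM (counts per 1000000 counts) in anti-CD115 and 234423 to 293288 CPM in isotype control glands. Most of this sum was Gh (135143 to 219057 CPM in anti-CD115 and 133684 to 236423 CPM in isotype control glands), so it does not measure the other hormones. Of the 7 genes, 4 had positive and 3 negative log2 changes (range -0.58 to 0.29), and 0 passed. All 16 macrophage markers fell (edgeR, median log2 change -2.79, range -3.33 to -2.30), and their sum was 19.5 to 67.6 CPM in anti-CD115 against 272 to 381 CPM in isotype control glands. Markers of other leukocytes were at low levels, and 2 of them passed the test as lower, the granzyme Gzma (edgeR log2 -1.63, adjusted p = 0.0417) and the immunoglobulin chain Ighm (-1.36, adjusted p = 0.00522). Of 4 neutrophil and mast cell markers tested, 3 had negative and 1 a positive log2 change, and 0 passed. Csf3r was lower with separate groups (edgeR log2 -1.28, adjusted p = 0.111), and S100a8 was higher with overlapping groups (0.76, adjusted p = 0.624). T and NK cell markers summed to 1.03 to 2.45 CPM in anti-CD115 and 2.43 to 4.19 CPM in isotype control glands, with Cd3e, Cd3g and Klrb1c each below 0.5 CPM. B cell markers summed to 6.48 to 10.2 and 9.53 to 19.6 CPM in the same order of groups, and neutrophil and mast cell markers to 31.3 to 40.5 and 34.6 to 51.5 CPM. Most of the last sum was Kit, which other cells also express (28.6 to 37.8 CPM in anti-CD115 and 28.3 to 47.6 CPM in isotype control glands). The sum therefore does not measure neutrophils or mast cells. S100a9 was highest in isotype control replicate 3 (4.03 CPM) and anti-CD115 replicate 2 (2.28 CPM). The 5 endothelial markers were all higher without passing the test (median log2 0.28, sums of 424 to 478 CPM in anti-CD115 and 286 to 425 CPM in isotype control glands). Melanocyte markers summed to 9.43 to 13.3 and 7.55 to 10.6 CPM, mostly Mitf and with no read of Tyr, posterior lobe markers to 85.7 to 134 and 46.4 to 139 CPM, and muscle markers to 1.73 to 2.49 and 1.85 to 2.69 CPM. In whole glands, fewer cells of a type and less RNA per cell cannot be told apart. What these cell types contribute to the Rab values was not tested.

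The first question was which Rab genes the pituitary expresses. Levels are compared between genes as the deposited FPKM, which divides out gene length. In isotype control glands the ER and Golgi member Rab2a was highest at 155 ± 10.7 FPKM (SD, n = 4). It was followed by Rab1b (92.2 ± 2.11) and Rab1a (79.6 ± 4.25), which act in transport out of the ER, and by the granule docking factor Rab27a (75.2 ± 5.81). Next came Rab7 of late endosomes (71.3 ± 1.03), Rab5c of early endosomes (47.9 ± 1.64), Rab10 of polarised exocytosis (46.8 ± 3.09) and Rab11a of recycling endosomes (43.0 ± 2.47). Rab18, found on ER and lipid droplets, stood at 35.3 ± 2.39 FPKM, Rab6a of the Golgi at 34.9 ± 2.44, the epithelial recycling member Rab25 at 32.6 ± 1.79 and the granule member Rab3d at 30.7 ± 4.57 (SD, n = 4 each). In all, 16 of the 57 genes reached 20 FPKM, 37 reached 5 FPKM and 50 reached 1 FPKM. Ordered by mean, 49 of the 56 neighbouring pairs had overlapping ranges over the 4 libraries. The 7 steps without overlap were Rab2a above Rab1b, Rab1b above Rab1a, Rab7 above Rab5c, Rab11a above Rab18, Rab12 above Rab11b, Rab8a above Rab5a, and Rab37 above Rab44. Rab44 had at most 2 counts in an isotype control library. The order also depends on the gene length used for FPKM. In mean isotype control CPM, Rab1a (304) lay above Rab1b (170) and Rab11b (116) above Rab12 (67.4). The remaining steps kept their order in mean CPM.

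**Figure D1:**
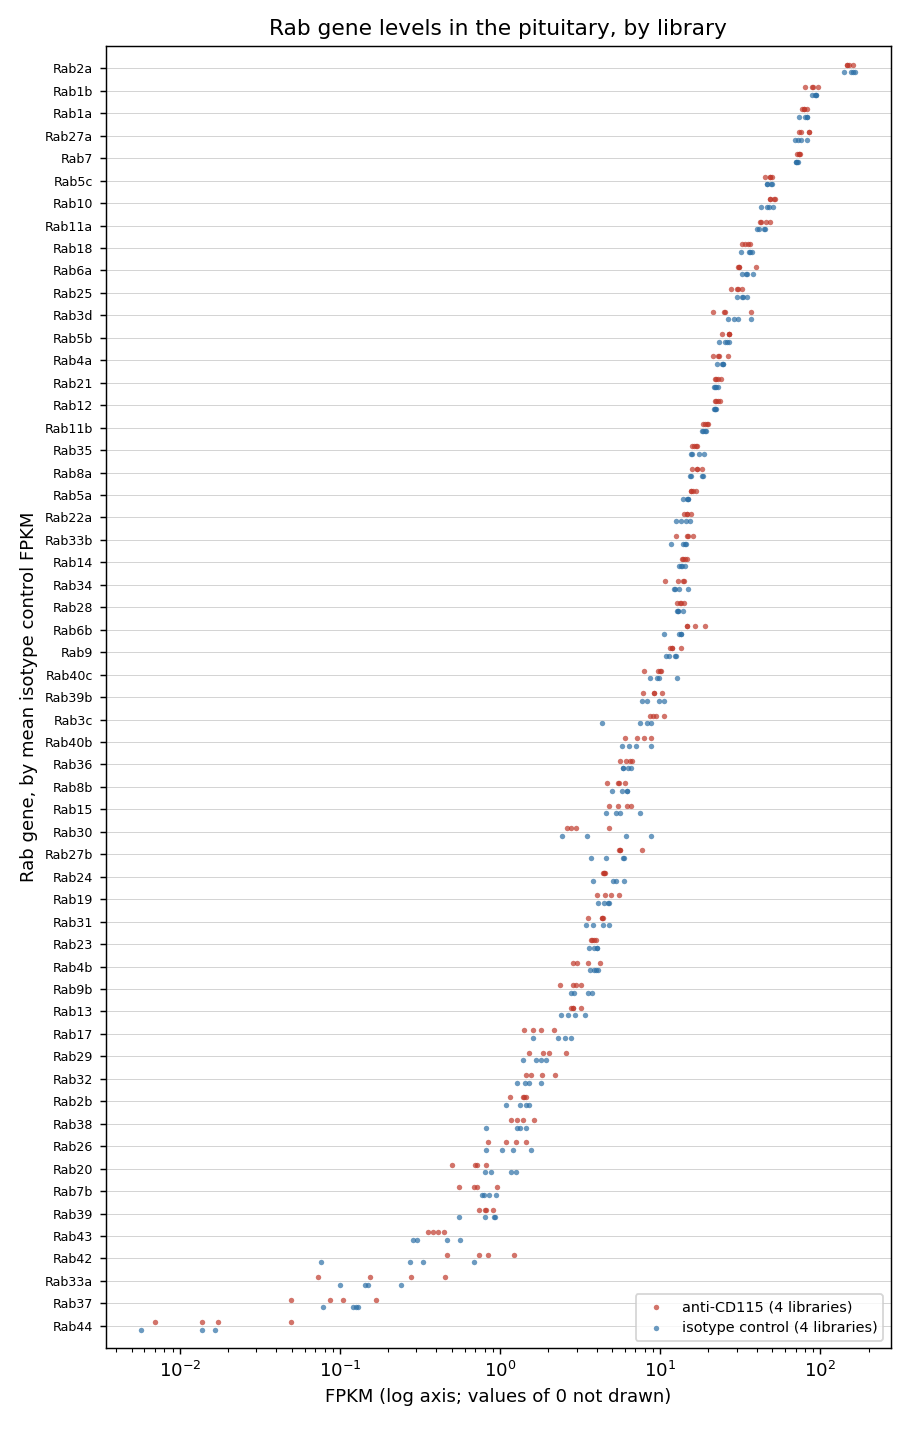
FPKM of each Rab gene on a log axis, 1 point per library, with the 4 anti-CD115 libraries above the 4 isotype control libraries in each row, ordered by mean isotype control level; 1 value of 0 (Rab44) is not drawn. Rab2a leads at 155 FPKM in isotype control glands, and the points of the groups overlap in FPKM for most genes.

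By role, the ER and Golgi class took 40.9% ± 0.367 of the summed Rab FPKM in anti-CD115 and 41.7% ± 0.789 in isotype control glands (SD, n = 4 each). Early and recycling endosome members took 28.4% ± 0.437 in anti-CD115 and 28.3% ± 0.637 in isotype control glands. The 6 secretory granule genes took 11.2% ± 0.856 and 10.9% ± 0.746 in the same order of groups, and the 5 late endosome and lysosome genes took 8.58% ± 0.121 and 8.48% ± 0.357. Polarised exocytosis genes took 6.82% ± 0.229 in anti-CD115 and 6.58% ± 0.0943 in isotype control glands, and the cilium and other class took 3.52% ± 0.234 and 3.53% ± 0.339. The 7 leukocyte and lysosome-related members together took 0.561% ± 0.0344 in anti-CD115 and 0.522% ± 0.0272 in isotype control glands. The ranges of the 2 groups overlapped for each of these 7 shares, and the Rab sum itself was 1105 ± 20.4 FPKM in anti-CD115 and 1099 ± 29.6 FPKM in isotype control glands.

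The main comparison asked which Rab genes differed after macrophage depletion. Of the 57 members, 55 passed the low-count filter, and edgeR called 0 of them at an adjusted p below 0.05, against 154 of 17723 genes tested (0.869%). DESeq2 and limma-voom also called 0 of the 55, against 1.51% and 0.784% of genes. At an unadjusted edgeR p below 0.05 there were 4 members, Rab6b, Rab3c, Rab42 and Rab20, or 7.27% of the 55 against 10.3% of all genes. The CPM of the groups did not overlap for 2 members, Rab6b and Rab5a, or 3.64% against 5.77% of all genes. Both shares lay near or under the share of all genes.

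Most Rab values sat close to 0. In all, 30 log2 changes were positive and 25 negative, with a median of 0.01 and quartiles of -0.05 and 0.06; for all genes tested the quartiles were -0.12 and 0.12. The size of the log2 change was under 0.2 for 45 of the 55 (81.8%), against 69.6% of all genes. The median SE was 0.10 for the Rab genes and 0.13 for all genes, so these shares were not taken at equal precision. The unadjusted 95% interval lay within 20% on either side of no change for 27 members and within 50% for 47, so that changes beyond these bounds fall outside the intervals of those genes. The remaining 8 had wider intervals. Without a low-count filter edgeR called 2 members, Rab6b higher (log2 0.35, adjusted p = 0.0403) and Rab30 lower (-0.59, adjusted p = 0.0240), against 1.52% of 32025 genes. The adjusted p of Rab6b over all 19 alternatives ran from 0.0403 to 0.583 and that of Rab30 from 0.0240 to 0.850.

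**Figure D2:**
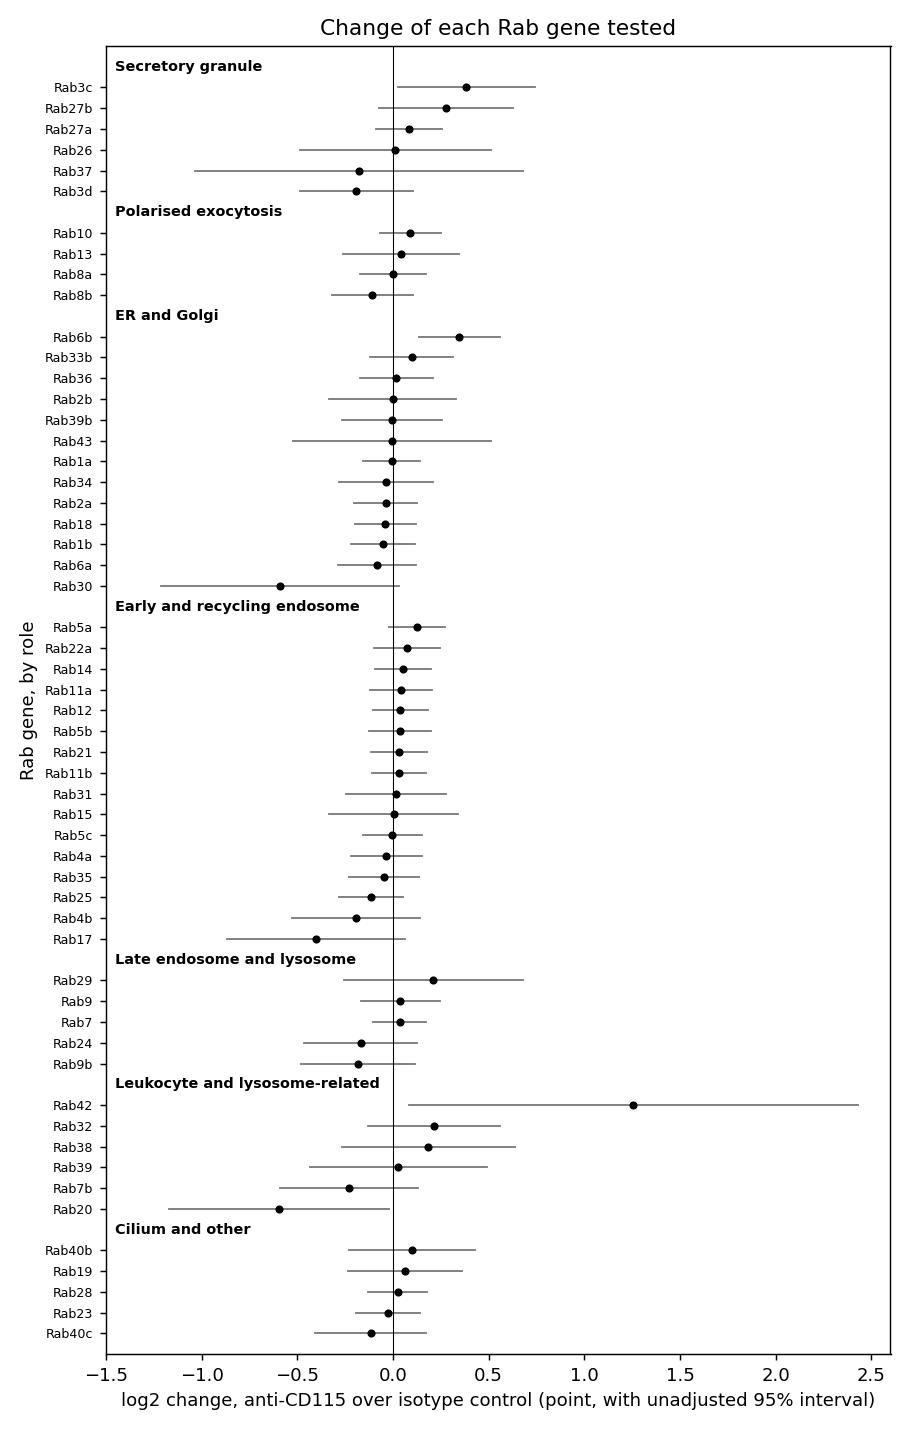
Log2 change of each tested Rab gene (anti-CD115 over isotype control, edgeR) with its 95% interval, grouped by role. Most points lie within 0.2 of 0, and the widest intervals belong to genes of low count such as Rab42.

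Among the 6 granule members, 4 had positive and 2 negative log2 changes (median 0.05), and 0 passed. Rab27a, which docks granules at the plasma membrane, had 288, 333, 329.7 and 296 CPM in anti-CD115 and 283, 297, 273 and 323 CPM in isotype control glands. These libraries overlap (log2 0.08, SE 0.08, edgeR adjusted p = 0.761). Rab3c, a vesicle member related to Rab3a, had 128, 108, 105 and 114 CPM in anti-CD115 and 107, 101, 53.1 and 90.4 CPM in isotype control glands. The single low library was isotype control replicate 3 (log2 0.38, SE 0.16, adjusted p = 0.457), and without it the value was 0.21. Rab27b, the second Rab27 form, had 60.4, 59.7, 82.5 and 58.8 CPM in anti-CD115 and 49.2, 62.9, 39.8 and 64.1 CPM in isotype control glands. The same isotype control library was lowest, and anti-CD115 replicate 3 was highest (log2 0.28, SE 0.16, adjusted p = 0.585; 0.14 without isotype control replicate 3). Rab3d, known for a role in granule maturation, ran the other way, with 89.8, 105, 156 and 107 CPM in anti-CD115 and 111, 121, 131 and 156 CPM in isotype control glands. Anti-CD115 replicate 3 again stood highest in its group (log2 -0.19, SE 0.13, adjusted p = 0.665), and without it the value was -0.35. Rab26 had a log2 change of 0.01, and Rab37, described in mast cell granules, of -0.18 with fewer than 1 CPM in every library.

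The 4 members of polarised exocytosis lay between -0.11 and 0.09. Rab10, which delivers carriers to the plasma membrane, had 172, 181, 170.2 and 182 CPM in anti-CD115 and 178, 164, 153 and 168 CPM in isotype control glands (log2 0.09, SE 0.07, edgeR adjusted p = 0.705). The groups overlapped through isotype control replicate 1. Rab8a, which also serves the cilium, had a log2 change of 0.00, its paralog Rab8b of -0.11 and the junctional Rab13 of 0.04.

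Of the 14 ER and Golgi members 13 were tested, 3 with positive and 10 with negative values (median -0.01). Rab6b, a form of Rab6 best known from neurons, had 96.8, 82.7, 74.7 and 74.3 CPM in anti-CD115 and 67.9, 53.3, 69.3 and 66.4 CPM in isotype control glands. All 4 anti-CD115 libraries lay above the 4 controls (log2 0.35, SE 0.10, edgeR adjusted p = 0.223), and the smallest value with 1 library left out was 0.28. Its paralog Rab6a, of Golgi-derived carriers, had 115, 116, 116 and 148 CPM in anti-CD115 and 121, 129, 133 and 143 CPM in isotype control glands. Here 1 anti-CD115 library stood above all others, and the log2 change was -0.08 (SE 0.09). The most abundant member, Rab2a, had 316, 321, 345 and 314 CPM in anti-CD115 and 352, 332, 303 and 343 CPM in isotype control glands, fully overlapping (log2 -0.04, SE 0.07, 95% interval -0.20 to 0.13). Rab1a (-0.01), Rab1b (-0.05) and Rab18 (-0.04) were as close to 0, as was Rab2b (-0.00), whose promoter carries the ETS letters above.

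Rab30, a Golgi member, spread more between libraries than the other tested members of this class. It had 25.4, 26.7, 29.0 and 46.1 CPM in anti-CD115 and 23.7, 59.0, 34.0 and 84.9 CPM in isotype control glands. The isotype control libraries spanned the whole anti-CD115 range, with a coefficient of variation of 54.6% in FPKM (30.4% in anti-CD115), and the log2 change was -0.59 (SE 0.28, edgeR adjusted p = 0.514). Without isotype control replicate 4 it was -0.30. Rab33a did not pass the filter, with 0.0724 to 0.452 FPKM in anti-CD115 and 0.101 to 0.241 FPKM in isotype control glands.

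**Figure D3:**
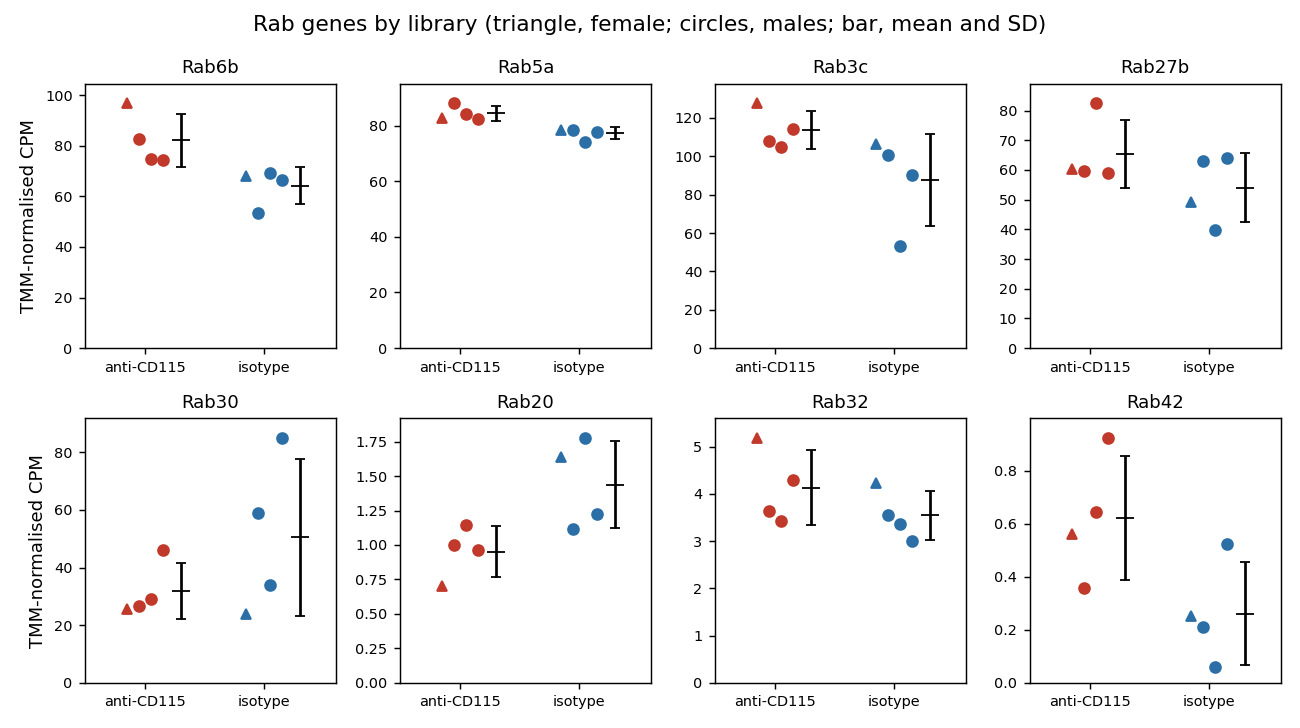
TMM-normalised CPM of 8 Rab genes in each library, anti-CD115 left and isotype control right, with mean and SD (n = 4) beside the points; triangles are females. Rab6b and Rab5a show separate groups, while isotype control replicate 3 lies low for Rab3c and Rab27b, and Rab30 is scattered from 23.7 to 84.9 CPM in controls.

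Of the 16 early and recycling endosome members, 15 had log2 changes under 0.2 in size (class median 0.02), and 0 passed. Rab5a, which directs fusion of early endosomes, had 82.9, 88.1, 84.4 and 82.4 CPM in anti-CD115 and 78.6, 78.6, 74.2 and 77.8 CPM in isotype control glands. The groups were separate but near each other (log2 0.13, SE 0.07, edgeR adjusted p = 0.542). Its paralogs Rab5b (0.04) and Rab5c (-0.00) were closer to 0; with the count table scaled by RLE factors Rab5c was just above 0, at 0.000808. Rab11a of recycling endosomes had 128, 137, 126 and 144 CPM in anti-CD115 and 121, 125, 138 and 135 CPM in isotype control glands (log2 0.04, SE 0.07). Rab21, which traffics integrins and whose promoter carries the E-box, gave 0.03 (SE 0.07). The members known from epithelia, Rab25 and Rab17, had negative values. Rab25 had 51.2, 46.6, 54.3 and 50.6 CPM in anti-CD115 and 58.4, 51.0, 55.6 and 54.7 CPM in isotype control glands (log2 -0.11, SE 0.08). Rab17 had 3.22, 2.82, 3.61 and 4.33 CPM in anti-CD115 and 5.08, 5.56, 3.26 and 4.61 CPM in isotype control glands (log2 -0.40, SE 0.21, adjusted p = 0.549). Both genes overlapped between the groups.

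Late endosome and lysosome members did not pass either. Rab7, which drives fusion with lysosomes, had 188, 192, 196 and 193 CPM in anti-CD115 and 190.4, 184, 190.5 and 185 CPM in isotype control glands. The libraries were within a few percent of each other (log2 0.03, SE 0.06, 95% interval -0.10 to 0.17). Rab9, of transport between late endosomes and Golgi, gave 0.04 (SE 0.09) and its paralog Rab9b -0.18 (SE 0.13). Rab24, linked to autophagy and carrying the E-box, had 9.15, 8.99, 9.06 and 8.82 CPM in anti-CD115 and 7.72, 10.7, 12.2 and 10.2 CPM in isotype control glands. Its anti-CD115 values lay inside the control range (log2 -0.17, SE 0.13). Rab29, a partner of the kinase Lrrk2, gave 0.21 (SE 0.21).

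Of the 7 members known from leukocytes and lysosome-related organelles, 6 were tested and 0 passed. The 16 macrophage markers fell in the same libraries. These 6 Rab genes were measured less precisely, with a median SE of 0.21 against 0.10 for all tested Rab genes. An unadjusted edgeR p below 0.05 was found for 2 of them (33.3%, against 10.3% of all genes tested), Rab20 lower and Rab42 higher. The median log2 change of the class was 0.11, with 4 positive and 2 negative values. Rab32, which serves melanosomes and phagosomes and whose promoter carries the ETS letters, had 5.19, 3.64, 3.43 and 4.29 CPM in anti-CD115 and 4.24, 3.57, 3.37 and 3.00 CPM in isotype control glands. The groups overlapped, with the female the highest library in each (log2 0.21, SE 0.16, 95% interval -0.13 to 0.56, edgeR adjusted p = 0.677). Its partner Rab38 gave 0.19 (SE 0.20) and Rab39, described on phagosomes, 0.03 (SE 0.21).

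Rab20, which takes part in phagosome maturation in macrophages, had the most negative log2 change of the family, next to Rab30. It had 0.701, 0.999, 1.14 and 0.967 CPM in anti-CD115 and 1.64, 1.12, 1.78 and 1.22 CPM in isotype control glands. The groups met at 1.12 and 1.14 CPM (log2 -0.60, SE 0.26, 95% interval -1.17 to -0.02, edgeR adjusted p = 0.472). Rab7b, of traffic between endosomes and Golgi, gave -0.23 (SE 0.16). Rab42 had 16, 10, 22 and 22 counts in anti-CD115 and 6, 6, 2 and 15 counts in isotype control glands, so its log2 change of 1.26 (SE 0.53, adjusted p = 0.461) rests on few reads. Without isotype control replicate 3 it was 0.88, and without isotype control replicate 4 it was 1.89. Rab44 did not pass the filter, with at most 6 counts in anti-CD115 and at most 2 counts in isotype control libraries.

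**Figure D4:**
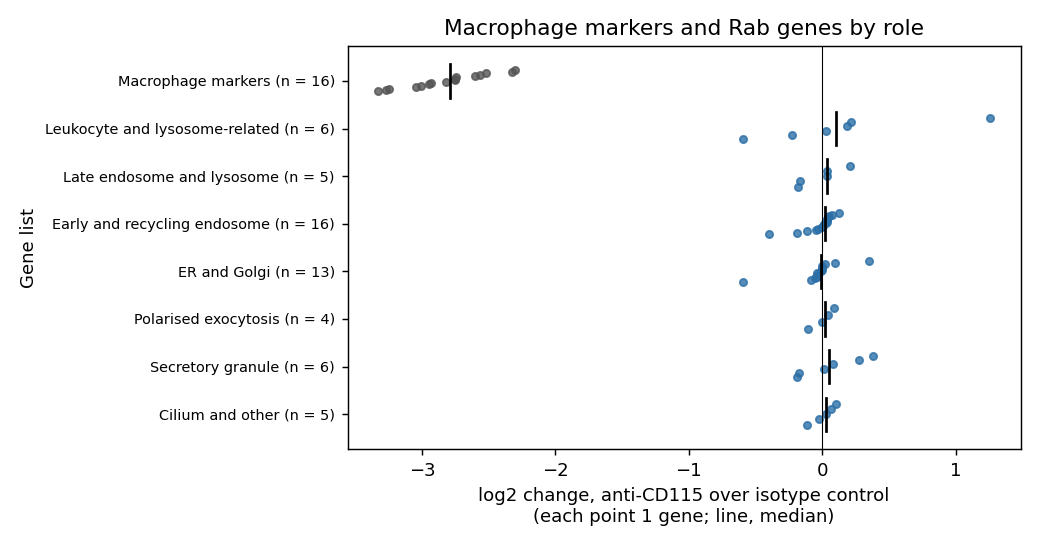
Log2 change (anti-CD115 over isotype control) of each macrophage marker and of each tested Rab gene by role class; each point is 1 gene and the line is the median. The 16 macrophage markers lie between -3.33 and -2.30, and all Rab classes have medians between -0.01 and 0.11.

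The cilium and other class was as near to 0 (median 0.03). Rab28, a ciliary member, gave 0.03 (SE 0.07), and Rab23, a negative regulator of hedgehog signalling, -0.03 (SE 0.08). Rab40c and Rab40b, which carry a SOCS box of ubiquitin ligases, gave -0.12 (SE 0.13) and 0.10 (SE 0.15).

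Ratios between paralogs are given as a description, without a test. Rab27a exceeded Rab27b by 13.3 ± 1.81 times in FPKM in anti-CD115 and by 15.4 ± 2.61 times in isotype control glands (SD, n = 4 each). Rab2a over Rab2b was 113 ± 13.0 in anti-CD115 and 116 ± 8.53 in isotype control glands. In these pairs 1 form held most of the level in FPKM. The size of such a ratio depends on the gene length used. In mean isotype control CPM, Rab27a stood at 294 and Rab27b at 54.0, and Rab2a at 333 and Rab2b at 5.64. Rab6a over Rab6b was 2.07 ± 0.464 in anti-CD115 and 2.79 ± 0.376 in isotype control glands, and Rab3d over Rab3c was 2.94 ± 0.947 and 4.63 ± 1.85 in the same order of groups. The libraries of these ratios overlapped. Among the 16 ratios formed, the groups were separate for 2. The share among ratios of other genes was not computed, so this count has no background. Rab5c over Rab5a was 3.01 ± 0.0965 in anti-CD115 and 3.29 ± 0.202 in isotype control glands. Rab40c over Rab40b was 1.27 ± 0.0972 in anti-CD115 and 1.46 ± 0.0466 in isotype control glands. Rab40c overlaps the opposite-strand gene Mettl26, which averaged 36.6 CPM in anti-CD115 and 40.5 CPM in isotype control glands.

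The proteins that load, switch off and read out Rabs were followed as 118 listed genes, of which 117 passed the filter. edgeR called 0 of them, as did DESeq2 and limma-voom, and 15 (12.8%) had an unadjusted p below 0.05, near the 10.3% of all genes tested. Values were positive for 67 and negative for 50, with a median log2 change of 0.03, and the groups were separate for 9 (7.69%, against 5.77% of all genes). Of the 9 genes for extraction, escort and prenylation, 0 had an unadjusted p below 0.05; the prenyltransferase subunit Rabggtb gave -0.13 and the methyltransferase Icmt 0.14.

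Exchange factors had 6 of 31 genes at an unadjusted p below 0.05 (19.4%, against 10.3% of all genes tested), and 0 passed after adjustment. Madd, which loads Rab3 and Rab27, gave 0.03 (SE 0.07). Rin1, which loads Rab5, had 3.61, 1.78, 1.47 and 2.61 CPM in anti-CD115 and 1.43, 0.664, 1.81 and 0.943 CPM in isotype control glands (log2 0.90, SE 0.33, edgeR adjusted p = 0.373). These overlapped, and the female was the highest anti-CD115 library. Hps4, part of the factor that loads Rab32 and Rab38, had 12.4, 13.6, 14.5 and 16.6 CPM in anti-CD115 and 15.1, 15.3, 24.4 and 20.2 CPM in isotype control glands (log2 -0.39, SE 0.14, adjusted p = 0.380). The sign was opposite to that of Rab32 and Rab38, and 0 of the 3 passed. St5, a factor of the DENN family, gave 0.24 (SE 0.09).

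Among GAPs, 4 of 30 had an unadjusted p below 0.05 (13.3%, against 10.3% of all genes). Tbc1d22a, of the TBC domain family, had 50.5, 49.4, 73.6 and 60.0 CPM in anti-CD115 and 73.7, 73.2, 71.6 and 81.9 CPM in isotype control glands. Anti-CD115 replicate 3 lay among the controls (log2 -0.37, SE 0.12, edgeR adjusted p = 0.309), and without a low-count filter the gene was called (adjusted p = 0.0420). Tbc1d16 gave -0.26 (SE 0.10) and Evi5, which acts in recycling, 0.25 (SE 0.08).

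The 20 secretory effectors had 3 genes at an unadjusted p below 0.05 (15%, against 10.3% of all genes) and a median log2 change of -0.06. Sytl4 (granuphilin), which links Rab27a to granule docking, had 256, 232, 315 and 316 CPM in anti-CD115 and 289, 329, 267 and 406 CPM in isotype control glands, overlapping widely (log2 -0.20, SE 0.13). Rims2, a Rab3 effector of release sites, gave 0.06 and Rph3al, which binds Rab3 and Rab27, -0.08. Exph5, which binds Rab27, gave 0.36 (SE 0.15), Optn, which binds Rab8, -0.24 (SE 0.09), and Unc13d, a priming factor of leukocyte granules, -0.86 (SE 0.37) at about 1 CPM or less.

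Of the 27 endolysosomal effectors, 2 had an unadjusted p below 0.05 (7.41%, under the 10.3% of all genes), with a median log2 change of 0.04. Eea1, the tether that binds Rab5 on early endosomes, had 51.2, 54.1, 48.8 and 54.1 CPM in anti-CD115 and 46.7, 42.5, 31.9 and 42.8 CPM in isotype control glands. The groups were separate, with isotype control replicate 3 lowest (log2 0.35, SE 0.11, edgeR adjusted p = 0.290; 0.25 without that library). The recycling effectors Rab11fip1 and Rab11fip3 gave 0.28 (SE 0.11) and 0.14 (SE 0.07).

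The same fit compared the 2 females with the 6 males. edgeR called 0 of the 55 Rab genes for sex, against 0.491% of all genes, and 3 had an unadjusted p below 0.05, against 9.09% of all genes; DESeq2 called 0, against 1.97%. Those 3 were Rab30 (log2 female over male -0.84, SE 0.34), Rab3d (-0.37, SE 0.16) and Rab32 (0.41, SE 0.18). For the sex by treatment term, with 1 female in each group, edgeR called 0 members against 0.0395% of all genes, 0 had an unadjusted p below 0.05 against 3.2%, and DESeq2 called 0 against 0.237%. Without a low-count filter Rab30 was called in both, against 1.88% of genes for sex and 0.525% for the interaction. It stood at 25.4 and 23.7 CPM in the anti-CD115 and isotype control females, with male libraries at 26.7 to 46.1 CPM after anti-CD115 and 34.0 to 84.9 CPM after isotype control.

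Some values carry a limit of counting. In all, 28 of the 57 genes overlap another gene's span, and for 8 that gene averaged above 1 CPM in isotype control glands: Rab10, Rab6a, Rab11b, Rab40c, Rab15, Rab24, Rab2b and Rab26. The kit was stranded, but whether counting used the strand is not given in the sources used here. Reads of opposite-strand partners therefore cannot be told apart. Traf7, which overlaps Rab26, lies on the same strand, so the strand would not separate them. It averaged 52.8 CPM in anti-CD115 and 52.9 CPM in isotype control glands, where Rab26 averaged 3.31 and 3.32 CPM in the same order. Processed pseudogenes took reads as well, with Rab11b-ps2 at 15.2 to 16.9 CPM in anti-CD115 and 15.4 to 18.9 CPM in isotype control glands, and Rab7-ps1 at 7.43 to 8.03 and 7.22 to 8.52 CPM in the same order of groups.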

How the data were processed

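RNA of 8 mouse pituitaries was sequenced from stranded mRNA libraries made from 100 ng of RNA, per the labels' protocols. The submitters' processing notes name GRCm38, featureCounts 1.5.0-p3, HISAT2 2.0.5 and StringTie 1.3.3b; their settings are not given in the sources used here. Read counts per gene were deposited unnormalised, as whole numbers. The deposited FPKM table, made by the authors, holds the same genes per length and depth, and served for levels between genes.

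The test was edgeR 4.0.16 (R 4.3.3) on the counts: filterByExpr on treatment (17723 genes kept), TMM factors and the quasi-likelihood test with terms for sex and treatment, adjusted by Benjamini and Hochberg over all genes tested, with a threshold of 0.05. Standard errors came from the F statistic; intervals (95%) are unadjusted. The interaction came from a fit that added a sex by treatment term; it takes the spread of males for females, since each group held 1 female. CPM are TMM-normalised. A total of 3 counts was worth 0.0828 to 0.129 CPM in a library, which covers counting error only. Alternatives were DESeq2 1.42.0, limma-voom (limma 3.58.1), RLE factors, other low-count filters, log2(FPKM + 0.1) and log2(FPKM + 1), no sex term, a replicate block, males only and each library left out. The fit was tested on simulated data.

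Members and gene lists were chosen with earlier results of these data known. Named members were the 12 highest in isotype controls, the 10 with the largest treatment change, and in each role class the 2 highest and the 2 with the smallest p, plus those that failed the filter. For regulators they were the 3 with the smallest p in each list, and 1 further gene that is not reported here. Other genes were named after their values were seen. Promoter sequences are from RefSeq (GRCm38.p6).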

Additional observations from a re-analysis of the deposited data

Results flagged for a closer look

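In 5 of the 106 sets of 4 libraries examined for the named genes, 1 library stood far from the other 3 relative to the range of the set (Dixon's test at its 95% critical value); chance gives about 1 in 20. Rab6a reached 148.4 CPM in anti-CD115 replicate 4, where the other anti-CD115 libraries held 115 to 116 CPM. Rab30 stood at 46.1 CPM and Rab40c at 24.5 CPM in that same library, against 25.4 to 29.0 CPM and 30.3 to 31.3 CPM in the other anti-CD115 libraries. Rab27b reached 82.5 CPM in anti-CD115 replicate 3, with 58.8 to 60.4 CPM in the others. Rims2 stood at 45.4 CPM in isotype control replicate 3, with 63.8 to 64.8 CPM in the other isotype controls.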

How the results depend on the processing

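Of 19 alternative settings, 1 changed the count of Rab genes called for treatment, which was 0 in the others, leaving out each library included. Leaving out either female leaves the other to the sex term, so these settings are nearly the fit to males only. The most negative Rab log2 change was -0.806 without anti-CD115 replicate 1, -0.806 without isotype control replicate 1 and -0.805 with males only. They are not separate checks. Without a low-count filter edgeR called 2 Rab genes (Rab6b, log2 0.35, and Rab30, -0.59), 1 regulator (Tbc1d22a, -0.36), and 1 Rab gene (Rab30) each for sex and for sex by treatment; the cause was not tested. The count over all genes, 154, was 268 with DESeq2, 67 with unfiltered log2(FPKM + 1), 487 without a low-count filter (134 higher and 353 lower, against 7 and 147) and 89 to 120 with 1 library left out; the lowest, 89 and 101, came without anti-CD115 replicate 4 and replicate 2. The replicate block gave 118 calls over all genes and 0 Rab genes. Same-numbered libraries deviated together unevenly (r of 0.398, -0.122, 0.0591 and 0.306 across genes, which are not independent replicates). The numbers were therefore not taken as pairs, and same-numbered libraries were not always each other's best match. Replicate 1, with the highest r, was the female of each group, and sex was not removed from the deviations. Sex and numbering cannot be told apart in that value.

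Of 32 named members, 25 kept the sign of their log2 change under every alternative run, as did 17 of 21 named regulators. Many of these genes were named for a large change or a small p, which favours a stable sign. The alternatives also reuse the same libraries, and the share among all genes was not computed. Most of those that turned were near 0, but Rab40c had a log2 change of -0.12 (SE 0.13) in the main fit. With males only Rab1a gave 0.0183, Rab2a 0.00445, Rab28 -0.0107, Rab8a -0.0160 and Rab5c 0.00305. Rab5c also gave 0.000867 with DESeq2, 0.000808 with RLE factors, 0.000879 without a low-count filter, 0.00259 with log2(FPKM + 0.1) and 0.00255 with log2(FPKM + 1), filtered or not. Rab8a gave -0.000775 with no sex term and -0.00279 with the stricter filter (at least 1 CPM in 4 libraries), which gave -0.00248 for Gdi2. With 1 library left out, the range was -0.0405 to 0.108 for Chm, -0.0315 to 0.0320 for Gdi2, -0.0114 to 0.0589 for Madd, -0.0382 to 0.0181 for Rab1a, -0.0120 to 0.0549 for Rab28 and -0.0802 to 0.00420 for Rab2a. It was -0.214 to 0.00901 for Rab40c, -0.0262 to 0.0284 for Rab5c, -0.0494 to 0.0340 for Rab8a, -0.0108 to 0.0878 for Rab9 and -0.0493 to 0.118 for Rims2. Depth limits the genes below 1 CPM, Rab42 and Rab37 among them, whose intervals are the widest.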
